A study of Mus musculus with 6 samples.

Results

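The genes described here are 10 genes of oxygen sensing and its transcriptional output: Hif1a, Epas1, Egln1, Egln2, Egln3, Vhl, Bnip3, Bnip3l, Pdk1 and Vegfa. They were taken by gene symbol from the array's probe annotation, and the probe set of each gene was chosen by brightness, meaning the largest mean of the 6 arrays. The 10 genes were found among 19938 genes with a single-gene probe set, and they were measured by 12 probe sets. The rule used brightness over both genotypes, so the signal levels are a description. The genes were listed with earlier results of these arrays known, so the changes of Bnip3, Egln3 and Pdk1 are not independent evidence about the pathway.

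Total RNA of mouse pre-B cells carrying BCR-ABL1, the leukaemic fusion kinase made by the Philadelphia chromosome, was hybridised to 1-colour arrays. The 3 wild-type samples came from mice with intact Etv5, which encodes an ETS-family transcription factor, and the 3 knockout samples from mice labelled as lacking it. All 6 samples shared the strain 129SvEv, the BCR-ABL1 transformation and the label of pre-B cells in a model of acute lymphoblastic leukaemia. How BCR-ABL1 was introduced, the age of the mice, the exons removed and the oxygen level of the cultures are not given in the labels. No label says that samples of 1 genotype are different mice or cultures, so p-values here measure the spread between these samples only, which may be technical.

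Cells measure oxygen through hydroxylation of the alpha subunits of hypoxia-inducible factor (HIF). The prolyl hydroxylases encoded by Egln1, Egln2 and Egln3 use oxygen to modify these subunits, and the VHL protein then recruits a ubiquitin ligase that sends them to the proteasome. When oxygen falls, the alpha subunit is spared, pairs with ARNT and switches on genes of glycolysis, mitophagy and angiogenesis. Egln3, Bnip3, Pdk1 and Vegfa are textbook targets, and Egln3 is therefore both a brake on HIF and one of its outputs. The arrays report RNA only, whereas the alpha subunits are controlled mainly as proteins.

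Between genotypes, RNA of Hif1a, Epas1, Egln1, Egln2 and Vhl did not pass the test, and 3 genes known as HIF outputs moved in different directions. Egln3 fell by 1.09 ± 0.10 (SE) on the log2 scale in the knockout and Pdk1 fell by 0.45 ± 0.050, whereas Bnip3 rose by 0.61 ± 0.053. The test was limma with Benjamini-Hochberg adjustment over all 35556 probe sets at 0.05, and each change is the knockout mean minus the wild-type mean, in log2 units. Of the 10 genes, 1 rose, 2 fell and 7 did not pass. Over all 19938 genes the same rule called 4.43%, of which 2.42% of genes were higher and 2.01% lower; since these members were listed with the result known, nothing is read from the count beside that background. The median change of the 10 genes was -0.04, beside -0.004 over all genes. In 4 of the 10 genes (Egln3, Bnip3, Pdk1 and Epas1) the groups of 3 did not overlap, which was so for 20.5% of all genes.

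**Figure D1:**
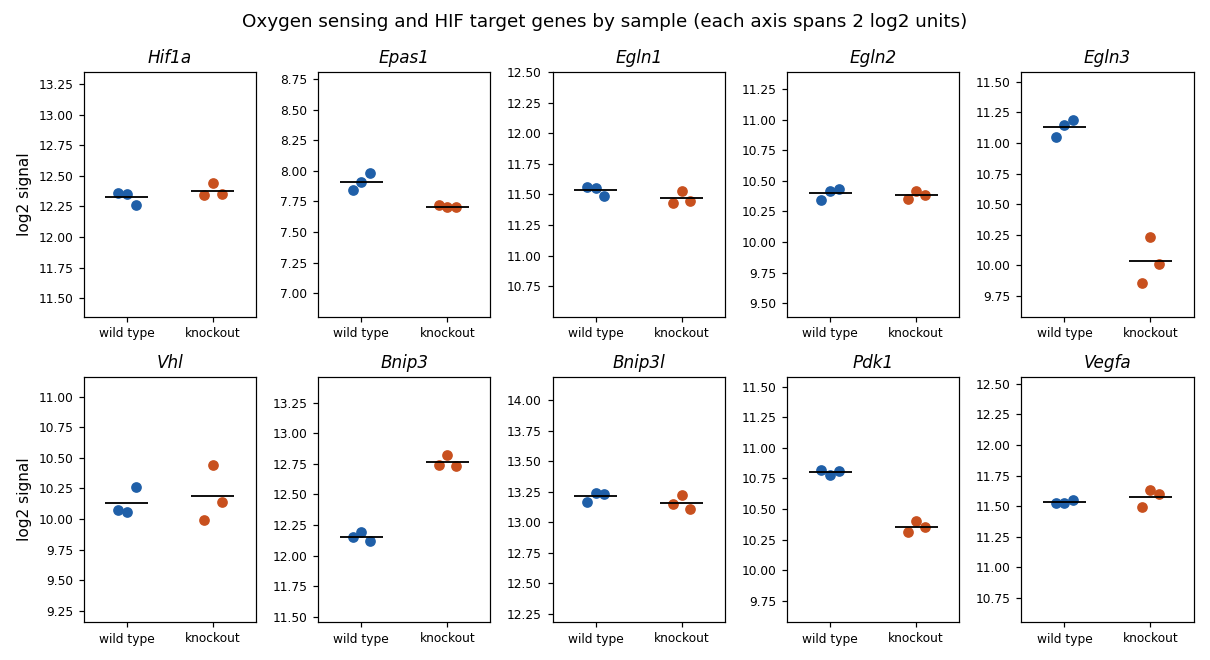
Log2 signal of the brightest probe set of each of the 10 genes in 3 wild-type samples (blue) and 3 knockout samples (orange); points are samples in number order, bars are means, and every axis spans 2 log2 units around the gene's own mean. Egln3 and Pdk1 were lower and Bnip3 higher in every knockout sample than in any wild-type sample, while the points of Hif1a, Egln1, Egln2, Vhl, Bnip3l and Vegfa overlapped.

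Libraries were alike in scale, with array medians from 7.79 to 7.84 and upper quartiles from 10.11 to 10.24. Knockout sample 2 had the highest upper quartile. It also had the highest knockout value in 9 of the 10 genes, all but Epas1, as it had in 54.8% of all genes. Without knockout sample 2, Egln3, Bnip3 and Pdk1 still passed. The precursor B markers Igll1, Cd79a and Cd79b were bright in all 6 samples, between 13.58 and 14.29, and the cells were labelled as pre-B cells. Of 10 measured markers of B cell precursors, Pax5, a B-lineage transcription factor gene, rose by 0.43 (limma adjusted p = 0.0127), Dntt, which encodes terminal deoxynucleotidyl transferase, fell by 0.37 on the log2 scale (adjusted p = 0.0132) and 8 did not pass; the list's mean log2 signal was 12.60 to 12.65 in wild-type cells and 12.60 to 12.68 in the knockout. Among 10 myeloid markers, Ly6g and Itgam rose by 1.14 and 0.60 and 8 did not pass; the list's mean log2 signal was 6.80 to 6.93 in wild-type cells and 6.89 to 7.10 in the knockout. The wild-type means of Ly6g and Itgam were 6.55 and 7.24, below the array medians, so the size of their changes is uncertain. Pecam1, one of 8 stromal and endothelial markers, rose by 0.46 and the other 7 did not pass. The mean of Pecam1 was 10.36 in wild-type and 10.82 in knockout cells. Col1a1, the next brightest of the 8, had means of 8.82 and 8.81. No marker of the 8 T and NK cell or the 4 measured erythroid genes passed limma, and 2 and 0 had an unadjusted p under 0.05. Over all 19938 genes, 2681 had an unadjusted p under 0.05. The part of these markers in the changes below was not tested. In bulk RNA, fewer cells of a type and less RNA per cell cannot be told apart. Etv5 probe set 10438626 fell by 0.43 on the log2 scale (limma adjusted p = 0.0467). Etv5 probe set 10363901 differed by 0.28 the other way and did not pass (adjusted p = 0.13). It gave 11.48, 11.52 and 11.46 in wild-type cells and 11.67, 11.88 and 11.73 in knockout cells, without overlap. By number, 10363901 lies between the probe sets of P4ha1 (10363350) and Ddit4 (10369290). Probe set 10438626 is numbered far from it, shortly after that of the B cell precursor marker Vpreb1 (10438064). The chromosomes of genes numbered beside both Etv5 sets were not compared with that of Etv5. Whether probe set 10363901 reads Etv5 alone or a copy elsewhere was not tested. Where the probes of both sets lie relative to the deletion is not given in the labels.

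The HIF alpha subunits came first in the pathway. Hif1a, which encodes the alpha subunit found in most cells, gave 12.36, 12.35 and 12.26 in wild-type cells and 12.34, 12.44 and 12.35 in knockout cells. The groups overlapped, and the change was 0.06 (95% interval -0.08 to 0.19, limma adjusted p = 0.886), so a change as large as that of Bnip3 or Pdk1 lies outside the interval. Epas1 encodes HIF-2alpha, the subunit known from endothelial cells and erythropoietin control. Its signal was 7.84, 7.91 and 7.98 in wild-type cells and 7.72, 7.70 and 7.70 in knockout cells. The knockout values were all lower, by 0.20 ± 0.055 (SE), and the 95% interval of the change, -0.34 to -0.07, excluded 0. After adjustment over all probe sets the difference did not pass (limma adjusted p = 0.178, and 0.0626 to 0.459 over 16 alternative settings). The Epas1 signal was close to the array medians, and the table holds no detection calls, so it was not shown to be above background.

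Of the 3 prolyl hydroxylases, Egln3 alone passed the test. Egln1 encodes PHD2, the main oxygen sensor of most tissues. It gave 11.56, 11.55 and 11.49 in wild-type cells and 11.43, 11.53 and 11.45 in knockout cells, overlapping values with a change of -0.06 (95% interval -0.20 to 0.07, limma adjusted p = 0.841). Egln2, which encodes PHD1, gave 10.34, 10.42 and 10.43 against 10.35, 10.42 and 10.38, a change of -0.02 (95% interval -0.15 to 0.11, adjusted p = 0.979). Egln3, which encodes the hypoxia-inducible PHD3, gave 11.05, 11.15 and 11.19 in the wild type. In the knockout it gave 9.86, 10.23 and 10.01, so every knockout value lay below every wild-type value. Its mean fell from 11.13 ± 0.073 to 10.04 ± 0.19 (SD, n = 3 each), which is 2.13-fold (limma adjusted p = 0.00363). By size of change Egln3 stood at rank 165 of 19938 genes. Egln3 kept its call in all 6 fits that left out 1 sample (adjusted p 0.00608 to 0.0248).

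The unequal change of the hydroxylase genes was also taken within each array. Log2 signal of Egln3 minus that of Egln1 was -0.51, -0.40 and -0.30 in wild-type cells and -1.57, -1.30 and -1.43 in knockout cells. Egln3 minus Egln2 was 0.70, 0.73 and 0.75 in wild-type cells and -0.49, -0.18 and -0.37 in knockout cells. Only the shift between genotypes is meaningful here, since different probe sets differ in brightness. The shifts were -1.03 and -1.07, with no overlap between groups. An exact two-sided permutation test gave p = 0.10 for each, the smallest value that 3 samples against 3 allow, and 0.10 after Benjamini-Hochberg adjustment over 5 such pairs of relatives. Each of the 5 pairs sets a gene listed with its change known against a relative. Its shift therefore largely restates that change and is not further evidence for it.

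Vhl encodes the recognition subunit of the ligase that removes hydroxylated HIF alpha. Within each genotype Vhl had the largest spread of the 10 genes (SD 0.11 in wild-type and 0.23 in knockout cells). It gave 10.07, 10.06 and 10.26 in wild-type cells and 9.99, 10.44 and 10.14 in knockout cells. The knockout samples held both its lowest and its highest value. The change was 0.06 (95% interval -0.24 to 0.36, limma adjusted p = 0.966), and it turned to -0.06 without knockout sample 2.

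Among the target genes, Bnip3 rose. Bnip3 encodes an outer mitochondrial membrane protein that marks mitochondria for autophagy. Its brightest probe set gave 12.15, 12.19 and 12.12 in wild-type cells and 12.74, 12.82 and 12.73 in knockout cells. The lowest knockout value stood above the highest wild-type value by far more than the spread within either genotype (12.15 ± 0.040 and 12.76 ± 0.051, SD, n = 3 each), a rise of 1.52-fold (limma adjusted p = 0.00287). This probe set, 10414269, is numbered among probe sets of chromosome 14 genes such as Ptger2 and Gpr137c, although Bnip3 lies on chromosome 7. Signal from a near-identical copy elsewhere and from Bnip3 itself cannot be told apart in it. The other Bnip3 probe set, 10568785, is numbered between chromosome 7 genes (Mapk1ip1 and Stk32c). It gave 11.39, 11.42 and 11.51 in wild-type cells and 12.06, 12.19 and 12.06 in knockout cells, a rise of 0.67 ± 0.064 (SE, adjusted p = 0.00387). Both probe sets therefore gave rises of similar size.

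Bnip3l, which encodes the related mitophagy receptor NIX, did not pass the test. Its brightest probe set gave 13.17, 13.24 and 13.23 in wild-type cells and 13.15, 13.22 and 13.11 in knockout cells, with a change of -0.05 (95% interval -0.18 to 0.08, limma adjusted p = 0.896). That probe set, 10394800, is numbered among chromosome 12 genes, while Bnip3l lies on chromosome 14. Probe set 10421003, numbered beside the chromosome 14 genes Dpysl2 and Ppp2r2a, gave 12.96, 13.00 and 13.02 against 12.90, 12.98 and 12.89. Its change was -0.07 (adjusted p = 0.767), so neither probe set passed. Within arrays, Bnip3 minus Bnip3l was -1.02, -1.05 and -1.12 in wild-type cells and -0.41, -0.40 and -0.39 in knockout cells. This shift of 0.66 had no overlap between groups (exact two-sided permutation p = 0.10, the smallest possible, and 0.10 adjusted over the 5 pairs).

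Pdk1 fell. Pdk1 encodes a kinase that switches off pyruvate dehydrogenase and so keeps pyruvate out of the mitochondrial citric acid cycle. Its signal was 10.82, 10.78 and 10.81 in wild-type cells and 10.31, 10.40 and 10.35 in knockout cells. The groups were tight and did not overlap (10.81 ± 0.022 and 10.35 ± 0.046, SD, n = 3 each), and the fall of 1.37-fold passed limma (adjusted p = 0.00667). The call held in each fit that left out 1 sample, with adjusted p from 0.0218 to 0.0479.

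Vegfa encodes the main angiogenic growth factor induced by HIF. It gave 11.53, 11.53 and 11.55 in wild-type cells and 11.49, 11.63 and 11.60 in knockout cells. The knockout values lay on both sides of the wild-type ones, and the change of 0.03 (95% interval -0.10 to 0.17, limma adjusted p = 0.958) did not pass. Of the 4 genes named above as textbook targets, then, 1 rose, 2 fell and Vegfa did not pass. They were listed with the result known, so nothing is read from that count beside the 4.43% of all genes called.

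**Figure D2:**
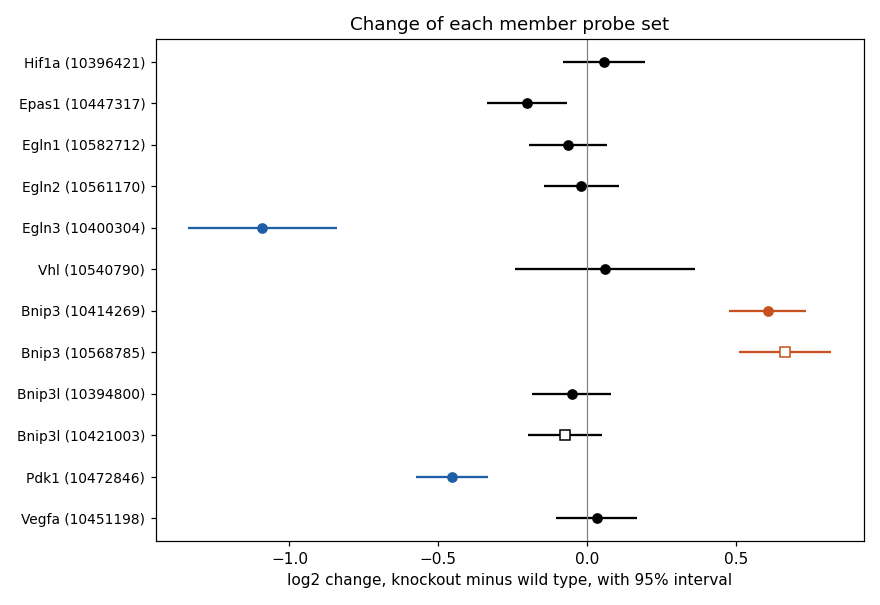
Log2 change, knockout minus wild type, of the 12 probe sets of the 10 genes, with limma's 95% interval; filled circles are the brightest probe set of a gene, open squares the other one, orange and blue mark probe sets called higher and lower. The Bnip3 probe sets rose by 0.61 and 0.67, and the intervals of Egln3, Pdk1 and Epas1 lay below 0, although Epas1 was not called. The intervals of Hif1a, Egln1, Egln2, Vhl, Bnip3l and Vegfa include 0.

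Because the 3 genes that passed are known HIF targets, their proximal promoters are shown, with that of Egln1 for comparison within the hydroxylase family. Each sequence is the 250 bases before the gene's start in RefSeq on GRCm38.p6, given 5′ to 3′ on the gene's strand. Capitals mark the core of the hypoxia response element, searched as ACGTG and GCGTG on both strands, where adjoining or overlapping matches run together. Of the 10 genes, 8 had an entry. For Pdk1 the first of its listed starts is shown.
Egln3 promoter, chr12:54203875-54204124, minus strand: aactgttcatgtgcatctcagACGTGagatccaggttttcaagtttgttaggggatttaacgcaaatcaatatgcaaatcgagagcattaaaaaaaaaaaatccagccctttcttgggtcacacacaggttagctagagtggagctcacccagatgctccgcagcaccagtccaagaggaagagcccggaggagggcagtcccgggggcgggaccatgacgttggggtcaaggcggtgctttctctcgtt
Pdk1 promoter, chr2:71872974-71873223, plus strand: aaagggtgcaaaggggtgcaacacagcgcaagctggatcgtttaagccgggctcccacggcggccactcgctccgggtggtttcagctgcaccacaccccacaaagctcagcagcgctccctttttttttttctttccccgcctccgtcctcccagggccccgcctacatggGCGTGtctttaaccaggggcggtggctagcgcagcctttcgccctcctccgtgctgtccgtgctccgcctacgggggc
Bnip3 promoter, chr7:138909507-138909756, minus strand: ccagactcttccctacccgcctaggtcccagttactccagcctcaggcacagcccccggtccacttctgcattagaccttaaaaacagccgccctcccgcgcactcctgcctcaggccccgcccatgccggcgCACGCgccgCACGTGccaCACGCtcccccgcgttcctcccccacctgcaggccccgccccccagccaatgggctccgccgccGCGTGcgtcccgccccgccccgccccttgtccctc
Egln1 promoter, chr8:124949255-124949504, minus strand: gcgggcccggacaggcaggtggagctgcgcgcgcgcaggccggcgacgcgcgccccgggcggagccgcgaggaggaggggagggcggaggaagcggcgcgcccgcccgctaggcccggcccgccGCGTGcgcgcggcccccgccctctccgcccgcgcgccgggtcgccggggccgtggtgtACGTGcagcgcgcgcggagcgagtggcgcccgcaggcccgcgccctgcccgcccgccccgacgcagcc

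The windows of both fallen genes held 1 match each, ACGTG beginning 229 bases before the start of Egln3 and GCGTG 78 bases before that of Pdk1. The window of Bnip3, which rose, held 5, of which a pair overlap on opposite strands in the palindrome CACGTG, 108 bases before the start. Egln1, which did not pass, held 2 matches and the first listed start of Egln2 held 4. Hif1a, which did not pass either, held 3, of which a pair overlap in the same palindrome CACGTG, 135 bases before its start. Vhl and the first listed start of Vegfa held none. The second listed start held 2 matches in Vegfa, 1 in Egln2 and none in Pdk1. At least 1 match was present in 38.6% of all 32851 promoter windows of this length and 2 or more in 16.7%. A match describes letters in the window and is not a measured binding site, and no match says nothing of sites outside it.

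The other genes of the pathway were taken from 7 lists holding 111 genes, of which 102 were measured. Limma called 5 of the 102 higher and 1 lower, shares of 4.9% and 0.98%, beside 2.42% and 2.01% of all genes. Tested among single-gene probe sets only, 10 were called, and with averaged probe sets per gene 11. The median change of the 102 was -0.0002. All 6 called genes were in the list of HIF targets outside glycolysis, where 5 of 34 rose, 1 fell and 28 did not pass. The lists were drawn up with earlier results of these arrays known, among them the rise of Ddit4. Nothing is therefore read from these counts beside the shares of all genes. The groups did not overlap in 36 of the 102 genes, beside 20.5% of all genes. An unadjusted limma p under 0.05 was found in 21 of the 102 and in 12 of the 34 targets outside glycolysis. The same held for 2681 of all 19938 genes, the background for such counts in each list below. Nothing is read from these counts either.

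HIF partners and cofactors gave no call among 7 genes by limma, with 1 at an unadjusted p under 0.05. That gene, Cited2, encodes a HIF-induced protein that competes with HIF for its coactivators. It gave 12.17, 12.26 and 12.35 in wild-type cells and 12.43, 12.57 and 12.51 in knockout cells, a difference of 0.24 (adjusted p = 0.197). Arnt, the shared beta subunit, differed by 0.12 (adjusted p = 0.513), the coactivator gene Crebbp by 0.08 (adjusted p = 0.75) and the third alpha subunit gene Hif3a by 0.01 (adjusted p = 0.995). Among 12 genes of HIF degradation and stability, limma called none and none had an unadjusted p under 0.05. The elongin genes Elob and Eloc, whose products link VHL to the ligase, had changes of 0.002 and -0.05 (adjusted p = 0.999 and 0.922), and the chaperone gene Hsp90aa1 had a change of -0.09 (adjusted p = 0.657). The brightest Hsp90aa1 probe set is numbered among chromosome 11 genes, while the gene lies on chromosome 12, and its other 2 probe sets did not pass either (-0.08 and -0.09, adjusted p = 0.676 and 0.618).

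Among glycolytic HIF targets, none of 16 measured genes passed limma, 2 had an unadjusted p under 0.05, and the median change was -0.04, with a range of -0.19 to 0.23. Ldha, which encodes lactate dehydrogenase A, gave 13.95, 13.94 and 13.97 in wild-type cells and 13.92, 13.95 and 13.97 in knockout cells. Its change was -0.01 (95% interval -0.12 to 0.10, adjusted p = 0.988). Pgk1, a glycolytic kinase gene, differed by -0.06 and the hexokinase gene Hk1 by -0.02 (adjusted p = 0.867 and 0.988). The brightest probe sets of both are numbered among genes of other chromosomes, and their other probe sets did not pass either. The other Hk1 probe set, 10369541, is numbered among chromosome 10 genes. It differed by -0.16 (95% interval -0.30 to -0.02, limma adjusted p = 0.337), and its groups did not overlap. The inducible hexokinase gene Hk2, named after its value was seen, differed by 0.23 (adjusted p = 0.18).

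The relatives of Pdk1 did not pass. Pdk3 gave 12.01, 12.01 and 12.00 in wild-type cells and 11.84, 11.90 and 11.87 in knockout cells, a difference of -0.13 (95% interval -0.25 to -0.02, limma adjusted p = 0.332). Pdk2 differed by 0.16 and Pdk4 by 0.03 (adjusted p = 0.511 and 0.988), from signals of at most 7.83 that were not shown to be above background. Within arrays, Pdk1 minus Pdk3 went from -1.20 ± 0.023 to -1.52 ± 0.015 (SD, n = 3 each), a shift of -0.32, and Pdk1 minus Pdk2 shifted by -0.62. In neither did the groups overlap (exact two-sided permutation p = 0.10 each, the smallest possible, and 0.10 adjusted over the 5 pairs). Of 11 measured genes of the pyruvate dehydrogenase complex and its control, limma called none and 3 had an unadjusted p under 0.05. Pdp2, named like Fundc1 below after its values were seen, encodes a phosphatase that reverses the action of the PDK enzymes. It gave 8.95, 8.99 and 9.11 against 9.30, 9.54 and 9.45 in the knockout, a difference of 0.41 (adjusted p = 0.0624) that passed in 8 of 15 alternative settings. Pdha1, the catalytic subunit gene, differed by -0.11 and the pyruvate carrier gene Mpc1 by -0.08 (adjusted p = 0.491 and 0.737). The only Mpc1 probe set is numbered beside the chromosome 12 gene Mok, while Mpc1 lies on chromosome 17. Signal from a copy elsewhere and from Mpc1 itself cannot be told apart in it.

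No gene of mitophagy and autophagy passed limma beside Bnip3, with 13 measured and 2 at an unadjusted p under 0.05. Fundc1, another mitophagy receptor of the outer membrane, gave 12.07, 12.12 and 12.14 in wild-type cells and 12.28, 12.41 and 12.38 in knockout cells. The difference of 0.25 (adjusted p = 0.101) passed in 7 of 15 alternative settings. The inner membrane receptor gene Phb2, the autophagosome gene Gabarap and the cargo adaptor gene Sqstm1 differed by -0.02, 0.11 and -0.08 (adjusted p = 0.976, 0.537 and 0.731).

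The VEGF list gave no call among 9 genes by limma, with 1 at an unadjusted p under 0.05 and a median change of 0.10. That gene was Pgf, the placental growth factor gene, which gave 10.98, 10.94 and 11.06 against 11.26, 11.58 and 11.49 in the knockout. The difference of 0.45 (adjusted p = 0.0699) passed in 8 of 15 alternative settings. Vegfb and Vegfc, like Vegfa, did not pass (0.07 and 0.11, adjusted p = 0.843 and 0.874).

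**Figure D3:**
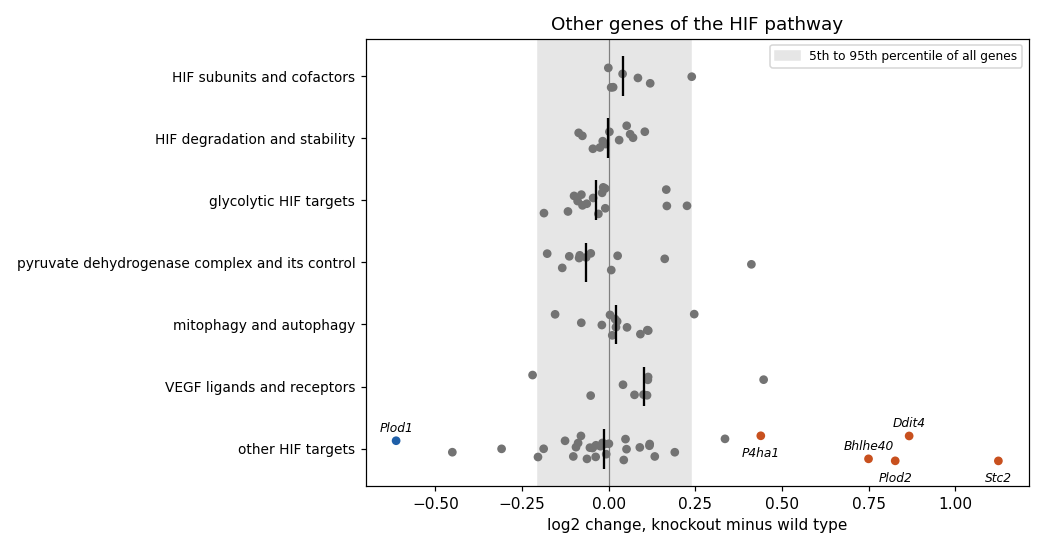
Log2 change, knockout minus wild type, of the 102 measured pathway genes in 7 lists; points are genes, with random vertical spread, orange and blue mark genes called higher and lower, black bars are list medians, and the grey band spans the 5th to 95th percentile of all genes (-0.20 to 0.24). All 6 called genes lie in the bottom row, and the list medians run from -0.07 to 0.10.

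The called targets outside glycolysis were genes of collagen modification, mTOR control, secretion and repression. Stc2, which encodes the secreted glycoprotein stanniocalcin-2, gave 7.88, 7.79 and 8.12 in wild-type cells and 9.03, 9.15 and 8.99 in knockout cells. It rose by 1.12 ± 0.098 (SE, limma adjusted p = 0.00282), or 2.18-fold, the largest change among the 102 genes, from wild-type signals near the array medians. Ddit4, which encodes the mTOR inhibitor REDD1, gave 9.85, 10.01 and 10.06 against 10.76, 10.96 and 10.81, a rise of 0.87 ± 0.082 (adjusted p = 0.00366). Bhlhe40, a transcriptional repressor gene, rose by 0.75 (adjusted p = 0.00311) from 6.46, 6.41 and 6.46 to 7.07, 7.23 and 7.28. Those signals lay below the array medians, so the size of its change is uncertain. None of these groups overlapped.

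The 3 called genes of collagen modification included rises and a fall. Plod2, which encodes a lysyl hydroxylase, gave 10.91, 10.89 and 10.94 in wild-type cells and 11.70, 11.76 and 11.76 in knockout cells, a rise of 0.83 ± 0.049 (SE, limma adjusted p = 0.000646). Its relative Plod1 gave 8.75, 8.80 and 8.85 against 8.15, 8.24 and 8.17, a fall of 0.61 on the log2 scale (adjusted p = 0.00309). P4ha1, which encodes a subunit of collagen prolyl hydroxylase, rose by 0.44 (adjusted p = 0.0117), from 10.82, 10.86 and 10.72 to 11.24, 11.25 and 11.22. The call of P4ha1 was lost in 3 of the 6 fits that left out 1 sample, those without wild-type sample 1, knockout sample 2 or knockout sample 3 (highest adjusted p 0.0613). The other 5 called pathway genes kept their calls in all 6 such fits. P4ha2 and Lox, collagen-modifying genes of the same list named after their values were seen, did not pass (-0.13 and -0.02, adjusted p = 0.755 and 0.986).

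**Figure D4:**
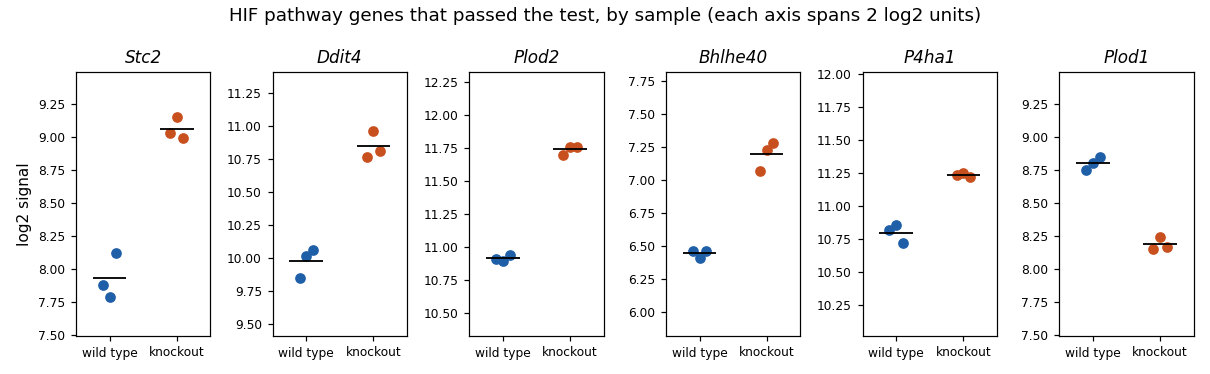
Log2 signal of the 6 pathway genes outside the list of 10 that passed the test, in 3 wild-type samples (blue) and 3 knockout samples (orange); points are samples in number order, bars are means, and every axis spans 2 log2 units. Stc2, Ddit4, Plod2, Bhlhe40 and P4ha1 were higher and Plod1 lower in all 3 knockout samples than in any wild-type sample.

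The remaining 28 genes of that list included well known hypoxia markers. Car9, the carbonic anhydrase gene widely used as a hypoxia marker and named here after its values were seen, gave 8.26, 8.05 and 8.24 in wild-type cells and 7.58, 8.01 and 7.61 in knockout cells. It differed by -0.45 (limma adjusted p = 0.21) and passed only without knockout sample 2 (adjusted p = 0.0468) among 15 alternatives. The brightest of the list, Mif, Tfrc and Cxcr4, differed by -0.05, 0.05 and 0.13 (adjusted p = 0.934, 0.912 and 0.457). The brightest Mif probe set is numbered among chromosome 9 genes, while the gene lies on chromosome 10, and its other 2 probe sets did not pass either (-0.07 and -0.06, adjusted p = 0.845 and 0.886). Mif encodes a cytokine, Tfrc the transferrin receptor and Cxcr4 the chemokine receptor of bone marrow homing.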

How the data were processed

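RNA of 6 samples was measured on 1-colour Affymetrix arrays. The authors deposited log2 values of 35556 probe sets; the submitters' processing notes list RMA and Partek 6.5. The RMA method corrects background, quantile-normalizes and summarises probes, which compresses differences of dim probe sets. What filters, detection calls or test the authors used was not given in the sources used here. Genotypes came from sample titles. Probe sets with exactly 1 gene symbol (21789) named 19938 genes, each by its brightest probe set. Limma 3.58.1 in R 4.3.3 (lmFit, eBayes, no covariate, no filter, 6.23 total degrees of freedom) compared the groups, adjusted over all probe sets. Precision is limited by the number of arrays. The fit was tested on simulated data, with the spreads of these arrays reassigned at random among probe sets. It called 33 of 100 planted changes of 0.5 and 79 of 100 of 1 log2 unit, and 5 of its 117 calls were false. The real fit called 1095 probe sets. With fewer calls the adjusted threshold is stricter, so the shares recovered need not hold for the data. Changes of these sizes can therefore be missed, and a gene that did not pass is not shown to be unchanged.

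The members and lists were chosen with earlier results of these data known. Named were all members, called pathway genes, the 3 brightest genes of each list, family relatives and Etv5. Samples were not treated as paired by number. Promoters and chromosome membership came from RefSeq tables of GRCm38.p6; gene positions are otherwise not printed because the array's build is not given. The settings varied were a block for sample number, a filter on dim probe sets, single-gene probe sets only, 3 normalizations, a variance trend, array weights, each sample left out, other thresholds and averaging the probe sets of a gene.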

Additional observations from a re-analysis of the deposited data

How the results depend on the processing

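Of the 10 genes, 3 were called under every alternative but the block, where Pdk1 was lost (2 called). With the sample number as a replicate block, 544 probe sets were called against 1095, Pdk1 had an adjusted p of 0.0648 and P4ha1 also lost its call. The labels do not pair the numbers, and deviations of same-numbered samples from their genotype mean correlated at -0.12, 0.016 and 0.259, while wild-type sample 2 correlated best with knockout sample 1 (0.311). No other member changed its call in any of the 16 alternatives that refitted or exchanged probe sets. Vhl changed sign without knockout sample 2 (-0.063, adjusted p = 0.931; -0.063 to 0.159 over the 6 fits that left out 1 sample). At an adjusted p of 0.01, 538 probe sets passed. Leaving out 1 sample at a time gave 565 (without wild-type sample 1) to 857 probe sets (without knockout sample 1), with 620 without wild-type sample 2 and 586 without knockout sample 3; 5 to 8 pathway genes were called, against 6. With single-gene probe sets only, 10 pathway genes were called, adding Pdp2, Fundc1, Pgf and Mxi1, and with averaged probe sets per gene 11, adding Ak4 as well. Taking Bnip3 and Bnip3l by the probe set numbered on their own chromosome, an alternative chosen after seeing the data, left 3 members called. Signals near or below the array medians lack detection calls, so small changes there could be missed. Such signals include those of Epas1, Hif3a, Pdk2, Pdk4, Bhlhe40, P4ha2 and Lox, the myeloid markers Ly6g and Itgam, wild-type Stc2 and knockout Car9.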
